A study of Homo sapiens with 3 samples.

Results

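The ZBTB transcription factor family was examined as a set of possible ZBTB11-bound genes. Members were the protein-coding genes whose GENCODE symbol is ZBTB followed by a number and at most 1 letter, which gave 41 of 20033 protein-coding genes on chromosomes 1 to 22, X and Y. ZBTB8OS, which encodes archease and carries the name of a neighbouring gene, was described apart. ZBTB11 itself was kept as a member, so that its own promoter could be read as a possible self-bound site.

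Chromatin immunoprecipitation and paired-end sequencing (ChIP-seq) had been done in NCI-H1299, an established cell line labelled as human lung adenocarcinoma that lacks p53. The cells were untreated and labelled WT in every library. One library was made with an antibody against ZBTB11, and normal IgG served in its place for the control library. The third sample, sequenced input, was not analysed here. With a single library for the antibody and for the control, no value has a replicate error, and no difference between libraries or genes was tested. The ZBTB11 list holds 348392 peaks and the IgG list 27877, the latter almost all on chromosomes 1, 10 and 21, so a control value exists for 10 of the 41 members.

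ZBTB proteins carry a BTB domain near the amino terminus, through which they pair and recruit cofactors, and zinc fingers near the carboxyl terminus, which read DNA. Many act as repressors that fix a cell lineage, some read methylated CpG, and some sit on telomeric repeats. ZBTB11 is thought to act on transcription in this way, and the question asked here was how often, and how strongly, promoters of its own family carried ZBTB11 peaks.

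The short sequence that the study described at ZBTB11 peaks was searched on both strands as CCGGAAG or CAGGAAG. For each strong member with a match within 100 bp of its promoter summit, the stretch with the nearest match is shown. A further CCGGAAG within 100 bp of the summit at ZBTB6, ZBTB37, ZBTB7B and ZBTB34 is not shown. Each stretch is 29 bases of hg38, read 5′ to 3′ on the strand that spells the match, with the match in capitals. The names are followed by the position and strand.
ZBTB45, chr19:58519798-58519826, minus strand: ggggtaacggcCCGGAAGtgcggccttgt
ZBTB11, chr3:101677143-101677171, plus strand: ctgctgcaccaCCGGAAGtgacgcaaggc
ZBTB26, chr9:122931539-122931567, plus strand: acccaacggaaCCGGAAGggcagccctgg
ZBTB6, chr9:122913367-122913395, plus strand: ctctaggcgccCCGGAAGgacattctgag
ZBTB37, chr1:173868346-173868374, minus strand: ggaacaccgtcCCGGAAGtgaaatccccc
ZBTB9, chr6:33454567-33454595, minus strand: tccgtcccagaCCGGAAGccgccgcctcc
ZBTB7B, chr1:155004206-155004234, minus strand: ctccacctggcCCGGAAGcctggacagcc
ZBTB34, chr9:126860571-126860599, plus strand: ttggcgcctgcCCGGAAGcgcgggcgtcc
ZBTB49, chr4:4290395-4290423, plus strand: gtgggaatggcCCGGAAGggaagggaggc
ZBTB43, chr9:126804963-126804991, plus strand: ctgacgcacccCCGGAAGcactgtcagtt
For contrast, the peak shared by ZBTB1 and ZBTB25 held neither spelling anywhere, and the 29 bases around its summit are given on the plus strand.
ZBTB1 and ZBTB25, chr14:64503398-64503426, plus strand: tgtgccaccctgaatcaggccccggcagc

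Nearly every member had a ZBTB11 peak near a transcript start, but the size of the peak spanned a wide range. A promoter peak, meaning any listed peak that reaches within 3 kb of an annotated start, was present at 40 of 41 members (97.6%), and the same held for 87.7% of all protein-coding genes. Because the list was called at a loose p below 0.05, a peak was called strong when the peak caller's own p was 1e-05 or less. A strong promoter peak was found at 28 members (68.3%), while 46.9% of all protein-coding genes had one. Of the other members, 12 had a weak peak only and ZBTB22 had none. The strong peaks of the family were 27 distinct peaks, since ZBTB1 and ZBTB25 share theirs.

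The largest peaks were also frequent in the family. At the summit, 7 members reached 100 or more fragments (17.1%), against 8.33% of protein-coding genes. Ordered by the peak caller's −log10 p, 14 members had a peak in the first 5000 of the whole list (34.1%), against 23.6% of protein-coding genes. Of these 14, 5 stood in the first 1000, and the share of protein-coding genes there was not computed. The median −log10 p of the strongest promoter peak was 8.14 over the 40 members with a peak (quartiles 4.91 and 25.4) and 5.73 over 17575 protein-coding genes (quartiles 3.12 and 19.5).

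Zinc finger genes under ZNF symbols gave a similar picture. They are a class by name, and include ZNF131, one of the relatives with a BTB domain described below. Of 508 protein-coding genes named ZNF and a number, 345 (67.9%) had a strong promoter peak and 84 (16.5%) had 100 or more fragments. Their median −log10 p was 12.04 (n = 488), above that of the ZBTB genes. The number of annotated starts, which sets how much sequence is searched, had a median of 4 for ZBTB genes, 5 for the ZNF genes and 5 for all protein-coding genes. In these counts the ZBTB genes stood above protein-coding genes as a whole. They were close to the ZNF genes in the share of strong peaks and below them in the median, without a test of any of these differences.

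**Figure D1:**
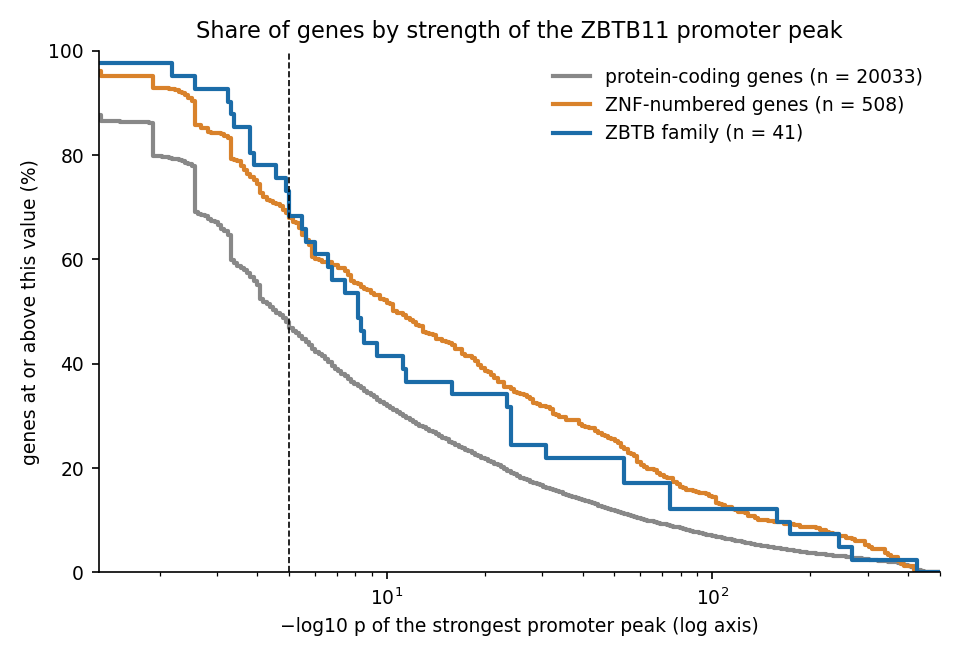
The share of genes (vertical axis, percent) whose strongest ZBTB11 promoter peak reaches at least a given −log10 p (horizontal log axis), for the 41 ZBTB genes, 508 ZNF-numbered genes and 20033 protein-coding genes. At the dashed line, p of 1e-05, the ZBTB and ZNF curves lie at 68.3% and 67.9% and the curve of all genes at 46.9%.

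ZBTB11 stood second in its own family. Its promoter peak, at chr3:101676176-101677463 in hg38, had 369 fragments at the summit (95% Poisson interval 332 to 409, counting error only), an estimated background of 27.8 fragments, a fold enrichment of 12.8 and a −log10 p of 269. It ranked 446 in the list. The summit lay 12 bp downstream of an annotated start, in an untranslated region of ZBTB11, a gene on the minus strand of chromosome 3 at 101648889 to 101677135. The peak was 1288 bp wide and also covered the start of ZBTB11-AS1, an antisense noncoding RNA. The CCGGAAG shown above was centred 51 bp from the summit, upstream of the start in the direction of ZBTB11 transcription. None of the other 4 promoter peaks of ZBTB11 was strong, the next of them having 5 fragments and a −log10 p of 2.57. Chromosome 3 is not covered by the IgG list, so this peak has no control value.

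ZBTB45 had the largest promoter peak of the family. Its summit held 478 fragments (436 to 523) over a background of 24.8, with a −log10 p of 420 and rank 98, and lay 72 bp upstream of an annotated start, inside an intron of the longer transcripts. ZBTB26 and ZBTB6, neighbours on chromosome 9, each had a large peak of their own. ZBTB26 had 260 fragments (229 to 294) with the summit 11 bp into its untranslated region. ZBTB6 had 204 fragments (177 to 234) with the summit 74 bp upstream of its only start. ZBTB37, on chromosome 1, had 175 fragments (150 to 203) with the summit 5 bp downstream of a start. The intervals of ZBTB45, ZBTB11 and ZBTB26 did not overlap one another, whereas those of ZBTB26 and ZBTB6, and of ZBTB6 and ZBTB37, did.

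The order depended on the measure. By fold enrichment, which divides by the estimated background, ZBTB26 came first (19.8-fold). It was followed by ZBTB45 (18.5-fold), ZBTB37 (17.8-fold) and ZBTB6 (16.1-fold), and ZBTB11 moved to position 5. The background was 27.8 fragments at ZBTB11 and 12.2 at ZBTB26. Each library was called on its own, so this background was estimated from the ZBTB11 library and not from a control. How far the fragments of a peak raised its own background was not tested.

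ZBTB1, which is needed for lymphocyte development, and ZBTB25 lie on opposite strands of chromosome 14 with overlapping beginnings and share their strongest promoter peak. It held 112 fragments (92.2 to 135), with a −log10 p of 73.6 and rank 1567. Its summit was 300 bp upstream of the nearest ZBTB1 start and 426 bp downstream of the nearest ZBTB25 start. A second strong peak, with 92 fragments and a −log10 p of 53.4, lay 13 bp from another ZBTB1 start and 173 bp from a ZBTB25 start. Second strong promoter peaks were otherwise seen only at ZBTB38 (12 fragments) and ZBTB7A (20 fragments), among 22 members with more than 1 promoter peak. The same counts were not made over all protein-coding genes. The median number of promoter peaks was 2 in the family and 2 over all protein-coding genes.

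The remaining members in the first 5000 had peaks of moderate size. ZBTB48, also known as TZAP, which binds telomeric repeats, had 70 fragments (54.6 to 88.4) and ZBTB9 had 69 (53.7 to 87.3). ZBTB7B, also known as ThPOK, which sets the helper T cell lineage, had 53 fragments (39.7 to 69.3), with the summit 1372 bp downstream of the nearest start. ZBTB7A, also known as LRF, a repressor of fetal globin genes, had 41 fragments (29.4 to 55.6). ZBTB17, also known as MIZ-1, the partner through which MYC represses genes, had 34 fragments (23.5 to 47.5). ZBTB34 had 34 and ZBTB49 had 33. From ZBTB48 downward, the intervals of neighbours in the order overlapped.

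**Figure D2:**
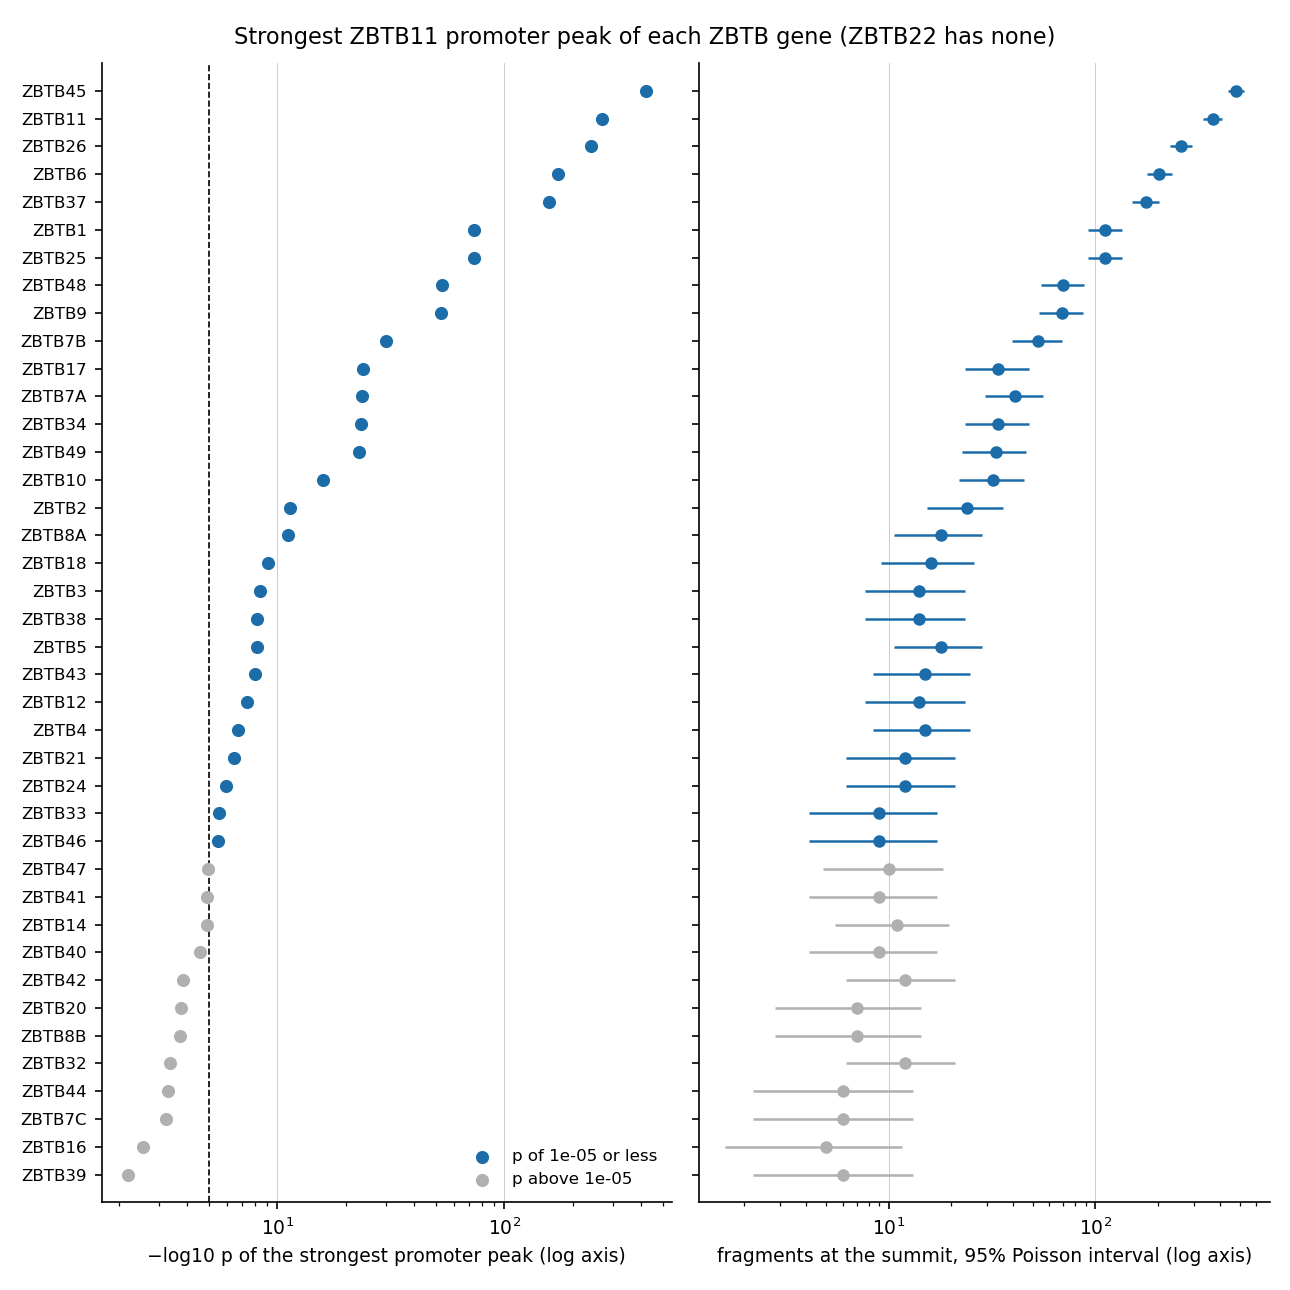
The strongest ZBTB11 promoter peak of each of 40 ZBTB genes in order, as the peak caller's −log10 p (left, log axis, dashed line at p of 1e-05) and as fragments at the summit with a 95% Poisson interval (right, log axis). Blue points are the 28 strong peaks and grey points the 12 weak ones; fragments run from 478 at ZBTB45 to 5 at ZBTB16.

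The members were then read by known role. The 3 methyl-CpG readers all had a strong peak, as did 46.9% of protein-coding genes, with 9 fragments at ZBTB33 (Kaiso), 15 at ZBTB4 and 14 at ZBTB38. The median of the strongest promoter peak was 11 fragments over all protein-coding genes with one, and 15 over the family. The summit at ZBTB4 was 371 bp upstream of its start but 14 bp from the start of POLR2A, which encodes the largest subunit of RNA polymerase II, so this peak cannot be given to ZBTB4 by position. Of 6 genes grouped here under telomere and genome maintenance, 5 had a strong peak, against the same 46.9%. ZBTB1 and ZBTB25 among them share one, and whether ZBTB25 has such a role was not checked. The 5 were ZBTB48, ZBTB1 and ZBTB25 with the values above, ZBTB10 with 32 fragments and ZBTB24 with 12. ZBTB10 binds variant telomeric repeats, and ZBTB24 is a gene mutated in ICF immunodeficiency. The exception, ZBTB40, had 9 fragments and a −log10 p of 4.55.

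The globin and lineage repressors were near the values of protein-coding genes as a whole. Of 10 such members, 5 had a strong promoter peak, against 46.9%, and the median was 11.5 fragments, against 11. ZBTB7B and ZBTB7A were the largest. ZBTB2 had 24 fragments, ZBTB18, which acts in developing neurons, had 16, and ZBTB46, which marks classical dendritic cells, had 9. The weak peaks of the group were ZBTB14 with 11 fragments, ZBTB32 with 12, ZBTB20 with 7, ZBTB7C with 6 and ZBTB16 with 5. ZBTB16, also known as PLZF, directs innate-like lymphocytes, and its −log10 p of 2.57 was the second lowest of the family, above ZBTB39 at 2.19.

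The other strong members were small as well. ZBTB8A had 18 fragments, ZBTB5 had 18, ZBTB43 had 15, ZBTB3 had 14, ZBTB12 had 14 and ZBTB21 had 12. The threshold fell within a run of similar values. ZBTB46, just inside it, had 9 fragments and a −log10 p of 5.46, and ZBTB47, just outside, had 10 fragments and a −log10 p of 4.96, with ZBTB41 at 4.92 and ZBTB14 at 4.90. Weak peaks at ZBTB42, ZBTB8B and ZBTB44 had 12, 7 and 6 fragments. Of the 12 weak peaks, 4 had a q of 0.05 or less in the caller's own correction and 8 did not.

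ZBTB22 was the exception to promoter peaks. This short gene on chromosome 6, at 33314406 to 33317942, had no peak within 3 kb of its 3 annotated starts. The nearest peak was 3280 bp from a start and reached into the gene's far end, with 8 fragments, a −log10 p of 2.08 and rank 186723, and its summit was 82 bp from a start of TAPBP, which encodes tapasin.

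Peak summits of the family lay about as far from own starts as those of other genes. The distance had a median of 105 bp over the 28 strong members, 71 bp over the ZNF genes and 120 bp over protein-coding genes. Within 200 bp were 20 of the 28 members (71.4%), 78% of the ZNF genes and 63.1% of protein-coding genes. An own start was the nearest of all annotated starts for 25 of 28 summits (89.3%), against 73.1% over the 9393 protein-coding genes with a strong promoter peak. The exceptions were ZBTB25, with a ZBTB1 start nearer, ZBTB4 with POLR2A, and ZBTB18 with a noncoding gene. Another gene began under the strong peak at 7 members (25%), against 44.4% of protein-coding genes. At ZBTB49 this was LYAR, and at ZBTB11 it was ZBTB11-AS1. The GC content of the 501 bp around the summit had a median of 66.4% at strong ZBTB peaks and 65.5% at all strong promoter peaks, and the width had a median of 836 and 865 bp.

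The count of members with the motif depended on the window around the summit. Within 50 bp of the summit, 6 of 28 strong members held CCGGAAG or CAGGAAG (21.4%), against 25.2% of all strong promoter summits. These were ZBTB6, ZBTB37, ZBTB9, ZBTB7B, ZBTB34 and ZBTB43, all with CCGGAAG. In windows of the same length centred 500 bp to either side, 1 of 56 held it (1.79%), against 4.33% for all strong promoter peaks. Widening to 100 bp added ZBTB45, ZBTB11, ZBTB26 and ZBTB49, which gave 10 of 28 (35.7%), against 38.6% for either spelling and 28% for CCGGAAG alone over all strong promoter summits.

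The matches close to the summit differed in number by peak rank. Of the 14 strong members in the first 5000, 9 held CCGGAAG within 100 bp of the summit (64.3%), against 41.3% of the protein-coding promoter peaks of that rank. Of the 14 strong members further down, only ZBTB43 did (7.14%), against 14.5%. Anywhere under the peak, CCGGAAG was present at 11 of the first 14, against 56.1%, and at 8 of the other 14, against 29.5%, so the gap between the ranks was smaller there. Among the 7 members with 100 or more fragments, 2 held either spelling within 50 bp (28.6%), against 43.6% of such protein-coding promoters. Within 100 bp, 5 of the 7 held CCGGAAG (71.4%), against 52.2%, or 59.7% with either spelling. The centre of the match was 16 bp from the summit at ZBTB6, 43 bp at ZBTB37, 51 bp at ZBTB11, 52 bp at ZBTB26 and 70 bp at ZBTB45. No match of either spelling was found anywhere under the peak of ZBTB1 and ZBTB25 or the peak of ZBTB48, with 112 and 70 fragments. At ZBTB17 and ZBTB7A the nearest CCGGAAG was 159 and 180 bp from the summit.

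**Figure D3:**
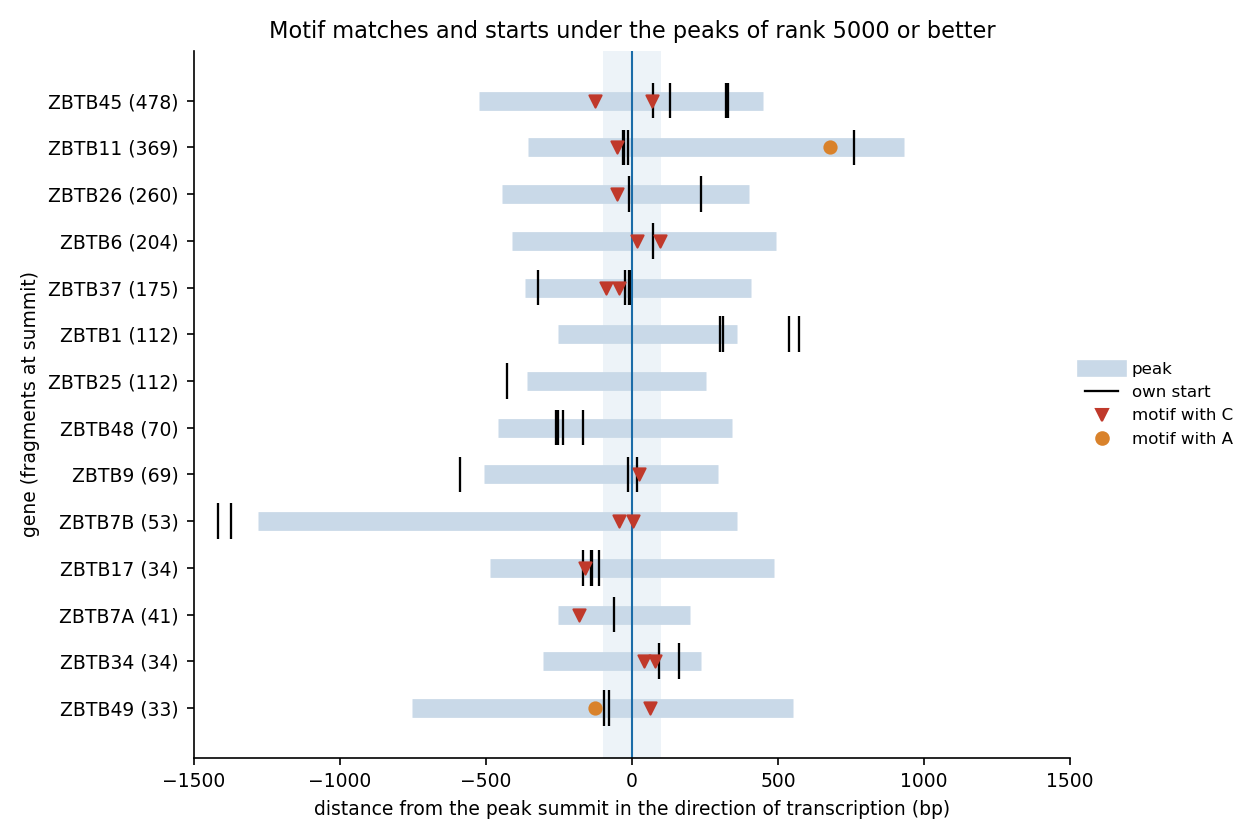
Peak extents (pale bars), annotated own starts (black ticks) and motif matches (red triangles for CCGGAAG, orange circles for CAGGAAG) around the promoter summit of the 14 ZBTB genes ranked in the first 5000, by distance from the summit in the direction of transcription in bp. The pale band marks 100 bp either side of the summit; 9 of the 14 peaks hold a red triangle in it.

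Promoter sequences from RefSeq (GRCh38.p14, 250 bases before to 50 after a start) were matched by symbol for 35 of 41 members, with 68 promoters in all. A gene was counted once if any of its promoters held a match, which favours genes with several promoters such as ZBTB38 and ZBTB20. Either spelling was present at 16 of the 35 members (45.7%), against 30.2% of 15345 protein-coding genes, and CCGGAAG at 13 (37.1%), against 16.7%. By peak class, 14 of 25 strong members and 2 of 10 members with a weak peak or none held either spelling, and 11 and 2 held CCGGAAG. The same split was not made over all protein-coding genes, so whether it is particular to the family was not tested.

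In gene bodies, the strongest peak was mostly the promoter peak again. A strong peak that overlapped the gene body was present at 29 members (70.7%), against 46.7% of protein-coding genes. Any overlap was counted, so a promoter peak that only reached into the gene was included. At 11 of the 28 members with a strong promoter peak, its summit lay outside the gene. All of these peaks except that of ZBTB46 still overlapped the gene body. In 33 of the 40 members with a body peak, the strongest body peak and the strongest promoter peak were the same. The gene body includes annotated starts, and this match was not counted over all protein-coding genes. Counting only body peaks that lay wholly over 3 kb from every own start, 2 members had a strong one (4.88%), against 6.57%. Some peak of that kind was listed at 30 members (73.2%), against 63.9% of protein-coding genes, with a median of 7 and 6 fragments, and leaving out ZBTB46 none had more than 9. ZBTB20, the longest member at 832.8 kb and a repressor of alpha-fetoprotein in liver, had 133 body peaks, of which the strongest had 9 fragments and a −log10 p of 5.40.

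ZBTB46 held an internal peak with as many fragments as any promoter peak of the family. The peak, at chr20:63807538-63808523, had 496 fragments at the summit (453 to 542), a fold enrichment of 16.4, a −log10 p of 410 and rank 148. It lay in an intron of ZBTB46, 17111 bp from the nearest ZBTB46 start, and 42 bp from the start of ZBTB46-AS1, a noncoding RNA on the opposite strand. The strongest promoter peak of ZBTB46 itself had 9 fragments, 2717 bp upstream of a start. No match of either spelling lay within 100 bp of the internal summit, and the single CCGGAAG under the peak was 328 bp away. The 29 bases at that summit are shown on the plus strand, without a match.
ZBTB46 internal peak, chr20:63808020-63808048, plus strand: cttcccacaggggacactcacggaagctg

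**Figure D4:**
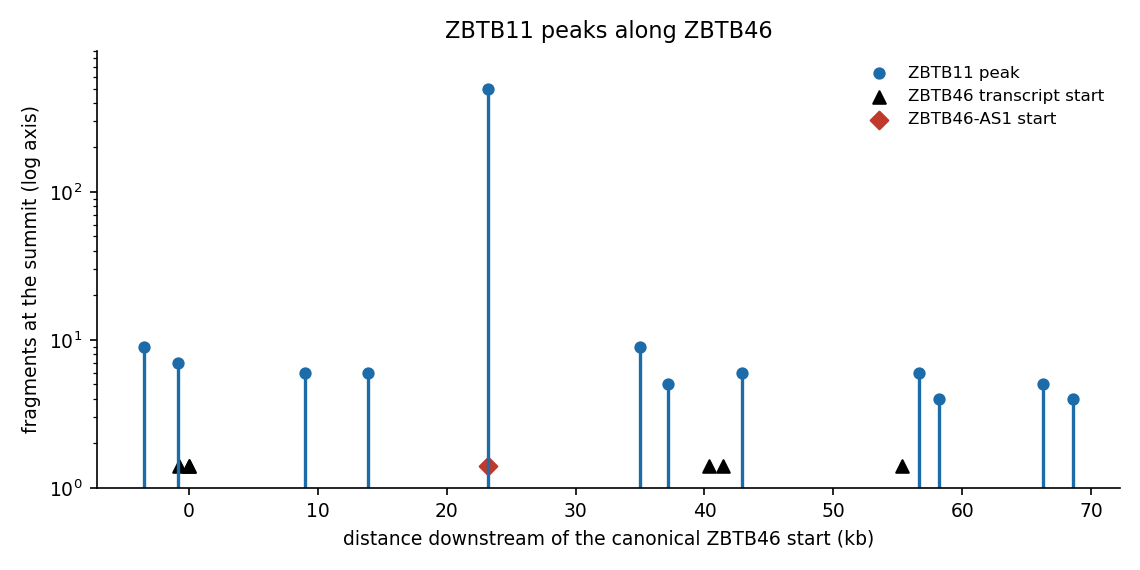
ZBTB11 peaks along ZBTB46, as fragments at the summit (vertical log axis) against distance downstream of the canonical start in kb, with ZBTB46 starts as triangles and the ZBTB46-AS1 start as a diamond. A single peak of 496 fragments stands at the ZBTB46-AS1 start, and the others have 9 fragments or fewer.

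The IgG control could be read for 10 members, 9 on chromosome 1 and ZBTB21 on chromosome 21, with none on chromosome 10. An IgG promoter peak was listed at 8 of them, against 68.7% of the 3011 protein-coding genes on these chromosomes, and none was strong, against 1.99%. In the ZBTB11 list, 7 of the same 10 had a strong promoter peak, against 44.9%. The IgG peaks held 5 to 10 fragments, with −log10 p from 1.73 to 4.21, and none had a q of 0.05 or less.

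The larger ZBTB11 peaks stood well apart from the control. ZBTB37 had 175 fragments in the ZBTB11 library and 6 (2.20 to 13.1) in the IgG library. ZBTB48 had 70 and 8 (3.45 to 15.8), ZBTB7B had 53 and 7 (2.81 to 14.4), and ZBTB17 had 34 and 10 (4.80 to 18.4). For these 4 the intervals of the libraries did not overlap. The strongest IgG peak of ZBTB17 was at another of its starts, 26814 bp from the ZBTB11 summit. ZBTB8A had 18 and 5, and ZBTB18 had 16 and 7, with overlapping intervals. The strongest IgG peak of ZBTB18 was 4992 bp from the ZBTB11 summit. The weak peaks of ZBTB41 and ZBTB40 had 9 fragments each against 5 in IgG, also with overlapping intervals. At ZBTB40 the summits of the 2 libraries were 2092 bp apart. ZBTB21, with 12 ZBTB11 fragments, and ZBTB8B, with 7, had no IgG promoter peak. The libraries were not scaled to each other, and their lowest estimated background was 1.35 fragments for ZBTB11 and 1.55 for IgG.

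The strong ZBTB11 peak itself overlapped an IgG peak at 6 of 7 members, all except ZBTB21. The share was 40.2% over the 1353 protein-coding genes with a strong promoter peak on these chromosomes. The overlapping IgG peaks were small, with 8 fragments at ZBTB48, 6 at ZBTB37 and ZBTB17, and 5 at ZBTB7B, ZBTB8A and ZBTB18. The IgG summits were between 208 and 628 bp away from the ZBTB11 summits. For the 31 members on other chromosomes no IgG value could be set beside the ZBTB11 peak, and the part of such background in their fragments was not tested.

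**Figure D5:**
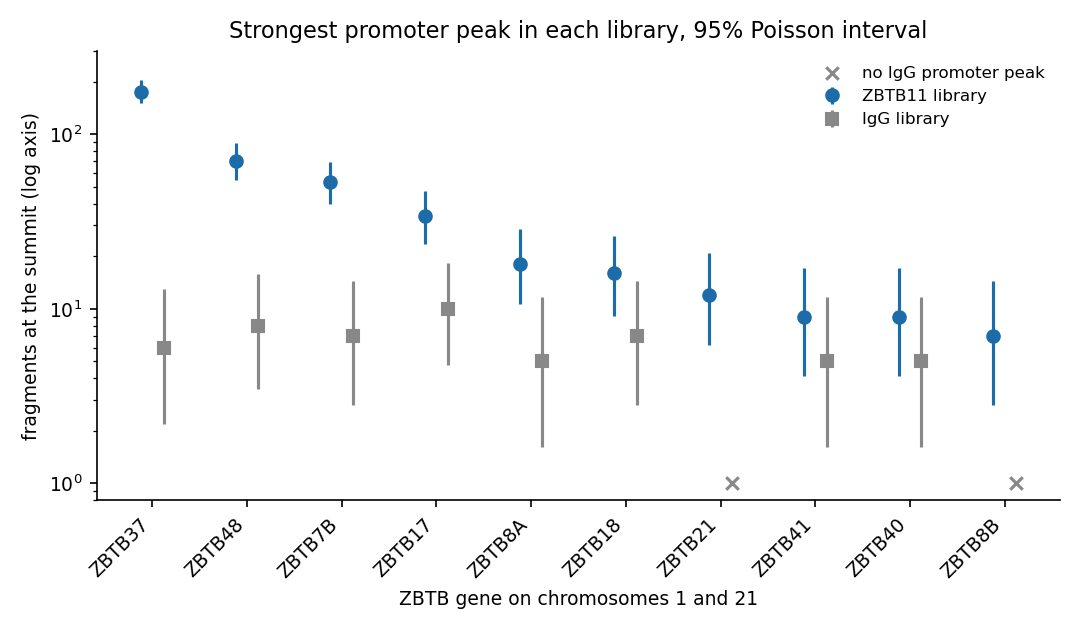
Fragments at the summit of the strongest promoter peak (vertical log axis) in the ZBTB11 library (blue circles) and the IgG library (grey squares) for the 10 ZBTB genes on chromosomes 1 and 21, with 95% Poisson intervals; crosses mark genes with no IgG promoter peak and have no height. The blue and grey intervals are apart at ZBTB37, ZBTB48, ZBTB7B and ZBTB17.

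Relatives with a BTB domain and zinc fingers under other symbols were read beside the family. Of 8 such genes, 6 had a strong promoter peak, against 46.9% of protein-coding genes, with 42 fragments at ZNF131, 39 at MYNN, 37 at BCL6, 28 at PATZ1, 27 at HIC1 and 18 at BCL6B. BCL6 is the repressor that drives germinal centre B cells, and its summit lay 2487 bp from the nearest own start. The ZNF131 summit lay 722 bp from an own start but 508 bp from a start of ANXA2R-OT1. That peak cannot be given to ZNF131 by position. LINC01521 began under the PATZ1 peak. GZF1 and HIC2 had weak peaks with 8 and 7 fragments. None of the 8 reached 100 fragments, and their median was 27.5 fragments, against 15 for the family. ZBTB8OS had a peak of 106 fragments with a −log10 p of 85.9 and rank 1360, and RBBP4, which encodes a histone chaperone, began under the same peak.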

How the data were processed

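Peaks were read from the lists that the authors deposited for the ZBTB11 and IgG libraries. Per the paper's methods, reads were aligned with BWA to hg38, and the authors called peaks in each library on its own with MACS at p below 0.05. The deposited columns give fold enrichment (a ratio), −log10 p and −log10 q for each peak, and the position of the summit. The column layout is that of a later MACS release than the one named, so the release is uncertain. The sequencing depth is not given in these files.

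From the fold and the p of each peak, the fragments at the summit and the background were solved on the assumption of a Poisson tail and a pseudocount of 1, which gave a solution within 0.001 in −log10 p for 100% of peaks in both lists. Intervals are exact Poisson at 95% and cover counting error at a chosen maximum only. Starts were those of every GENCODE 44 transcript, on the same build. For each gene the peak with the largest −log10 p within 3 kb of a start and the largest in the gene body were taken. In both cases any overlap of the peak was enough, wherever its summit lay. Shares over promoter peaks or summits were counted by gene, so a shared peak counted for each of its genes. Named genes were ZBTB11, members with a peak in the first 5000, with no promoter peak, on chromosomes 1, 10 and 21, or with a strong internal peak, and the role groups. The other members' values and neighbouring genes were named after they were seen. Members, role groups and relatives were chosen with earlier results of these data known. Scripts were tested on simulated data and used Python 3.11.15, pandas 2.3.3, scipy 1.17.1 and pysam 0.24.0. The alternatives were a 1 kb window, q of 0.05 or less, 100 or more fragments, canonical starts, nearest starts, ZBTB8OS as a member, wider motif windows and CCGGAAG alone.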

Additional observations from a re-analysis of the deposited data

How the results depend on the processing

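For 6 results, 20 other settings were computed, and 15 of them stayed within the 95% binomial interval of the value reported. The share of members with a promoter peak fell from 97.6% to 78% when only peaks with a q of 0.05 or less were counted (55.3% of protein-coding genes). The share with a strong promoter peak fell from 68.3% to 17.1% when strong meant 100 or more fragments (8.33% of protein-coding genes). It lay between 61% and 78% under the rest. The lowest of these came when the peak had to be nearest to an own start (35.5% of protein-coding genes). Counting ZBTB1 and ZBTB25 once, chosen after seeing the data, gave 67.5%, against 46.9% of protein-coding genes, whose shared peaks were not merged. The share with a strong gene body peak fell from 70.7% to 4.88% when the peak had to be over 3 kb from own starts (6.57% of protein-coding genes). It was 82.9% at a q of 0.05 or less (57.6% of protein-coding genes). The share with an IgG promoter peak fell from 80% to 0% at a p of 1e-05 or less (0 of 10 members, against 1.99% of protein-coding genes). With 1 library a group, counting error limits peaks of about 10 fragments or fewer most, among them ZBTB33 and ZBTB46. No paired analysis was possible because the antibody and the control have 1 library apiece.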

Other observations

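Noncoding genes that carry a ZBTB name were read in the same way. Of 20 such genes, 14 are not pseudogenes and 3 of these had a strong peak within 3 kb of a start. They were ZBTB46-AS1 with 496 fragments, ZBTB11-AS1 with the 369 fragments of the ZBTB11 promoter peak, and ZBTB24-DT with the 12 fragments of the ZBTB24 promoter peak. ZBTB46-AS1 is the only one of the 3 whose strong peak is not also the strongest promoter peak of the gene it is named for. The 4 antisense genes inside ZBTB20 with a peak had 4 to 7 fragments, and ZBTB20-AS3 had none. The share with a strong peak over all noncoding genes was not computed, so these counts have no base rate beside them.

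Of the 6 pseudogenes, 2 had a strong peak, and the share over all pseudogenes was not computed. ZBTB45P1 had 25 fragments and ZBTB45P2 had 24, both on chromosome 2, with summits 1688 and 1669 bp from their starts. Both summits lay outside the pseudogenes, past the end opposite the start. Neither peak lies at the ZBTB45 promoter on chromosome 19. How reads were shared between the pseudogenes and other near-identical sequence was not tested.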
